A study of Mus musculus with 6 samples.

Results

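Mitochondrial ribosomal protein genes were examined in the livers of Fah-deficient mice kept on the drug NTBC and of others taken off it for 7 days. The family was taken as every gene of the array whose single annotated symbol begins with Mrpl or Mrps followed by a number. This gave 71 genes out of 22180 with a single symbol. For 9 of them more than 1 probe set was present, and the probe set with the highest mean signal was used. The annotation lists 78 symbols of the family, and the other 7 (Mrpl30, Mrpl33, Mrpl41, Mrpl43, Mrpl44, Mrpl53 and Mrps6) occur only on probe sets shared with another gene, so they were not counted.

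The mice were males of the C57Bl/6J background, of the Fah-mutant line FAH5981SB, in which a point mutation in Fah leads to an unstable protein. Fah encodes fumarylacetoacetate hydrolase, the last enzyme of tyrosine breakdown, and its loss causes hereditary tyrosinemia. NTBC (nitisinone) blocks the pathway upstream, at the enzyme encoded by Hpd. The continuous group (3 arrays) drank NTBC at 8 mg/l throughout, and the withdrawal group (3 arrays) went without it for 7 days from the age of 11 weeks. Liver was sampled in both groups at 12 weeks. Both groups carry the mutation and ate a chow low in tyrosine and phenylalanine, and no unmutated mice are included. The labels name dextrose at 3% in the drinking water without saying whether it was kept during withdrawal. Replicates are called biological, but no animals are named, so a p-value here is set against sample-to-sample spread, which may be partly technical.

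The mitochondrial ribosome translates the few messages encoded by mitochondrial DNA, all of which specify membrane subunits of the respiratory chain and ATP synthase. Its RNAs come from mitochondrial DNA, whereas all its proteins are encoded in the nucleus, made in the cytosol and imported. A small subunit reads the message, and a large subunit joins amino acids and releases the chain at the inner membrane. Some of the proteins have counterparts in bacterial ribosomes, and others are found only in mitochondria. Liver cells hold many mitochondria and depend on this machinery for oxidative metabolism. Of the 71 genes, 45 encode large subunit proteins, 25 encode small subunit proteins and 1, Mrps36, encodes a protein now assigned to the oxoglutarate dehydrogenase complex. Mrps30 and Mrps18a belong to the large subunit in spite of their symbols and were counted there.

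Values are log2 signals of the deposited intensities, and a change is the withdrawal mean minus the continuous mean on that scale. Per array, the median over all 34472 probe sets lay between 5.21 and 5.44. Of the 71 genes, 68 had signals above the median of every array and 2 lay below it on every array. Mrps36 was below the lower quartile on 4 of the 6 arrays, and no other member was below it on any. The mutated gene Fah, which carries its point mutation in both groups, had a signal of 7.82 ± 0.42 (SD, n = 3) with NTBC and 7.66 ± 0.23 (SD, n = 3) after withdrawal. Of 7 measured hepatocyte markers none was below the array's lower quartile on all 6 arrays, and Alb, the main serum protein of hepatocytes, stood at 14.17 ± 0.06 with NTBC and 14.12 ± 0.01 after withdrawal (n = 3 each). The list as a whole was less even than Alb. Of the 7 changes 5 were below 0 and 2 above it, from -0.77 to 0.13, and none was called. Their median was -0.18, against -0.08 over all probe sets. Continuous replicate 2 stood apart in markers of pancreatic acinar cells, with the highest signal of all 6 arrays for each of 7 markers and a summed linear signal of 1046, against 262.6 to 350.9 on the other 5 arrays. In whole liver, fewer cells of a type and less RNA per cell cannot be told apart.

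After NTBC withdrawal, 10 of the 71 genes rose and none fell. Those that rose were Mrps22, Mrpl50, Mrpl16, Mrps30, Mrpl38, Mrpl15, Mrpl35, Mrpl13, Mrps33 and Mrpl47, by 1.55-fold to 1.93-fold. The count rests on limma's test of all 34472 probe sets, with p-values adjusted after Benjamini and Hochberg and a threshold of 0.05. By the same test 6.21% of all probe sets were called higher and 3.2% lower, and the family's share of higher calls was 14.1%. Among all 22180 genes with a single symbol, with 1 probe set each as for the family, 7.58% were called higher and 3.39% lower. At an unadjusted p under 0.05, 22 of the genes were higher and 1 (Mrps34) was lower, and over all probe sets 12.4% were higher and 11.2% lower at that level. The unadjusted shares were not counted among probe sets with signals of the same size. The other 61 genes had changes that did not pass. Without continuous replicate 2, the array with the acinar signal, 4 genes were called higher and none lower, and the family's median change was 0.22 in place of 0.23. Leaving out other single arrays gave from 1 (withdrawal replicate 1) to 15 (continuous replicate 1) higher. Counts over all probe sets with 1 array left out are given below as ranges. The part of the acinar signal in the family's count was not tested.

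The family's share of rises was near that of probe sets with signals of the same size. Among the 2982 probe sets whose mean signal lay between the family's own lower and upper quartiles (7.08 and 7.95), 16.6% were called higher. The 35 family members in that range included 5 that rose. The median change was 0.23 over the family, 0.17 over the probe sets in that range and -0.08 over all probe sets. The family's share of 14.1%, lower than that 16.6%, counts all 71 genes, including those outside the range. The 2982 probe sets also include the 35 members. The shares were not tested against each other.

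The scaling of the arrays moved these values. With quantile normalization added to the deposited values, 7 genes were higher and 1 (Mrps34) lower, and the family's median change was 0.08. The probe sets of the same signal range then had a median of 0.01, with 12.3% called higher and 9.39% called lower. Each array was also centred at its own median, which gave a median of all probe sets of 0.02 in place of -0.08. After this centring 11 genes were higher and none lower, with a family median of 0.33. For probe sets of the same signal range the median was then 0.27, with 17.8% called higher and 2.95% called lower. Of all called probe sets 66.0% were higher as deposited and 77.2% after centring.

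**Figure D1:**
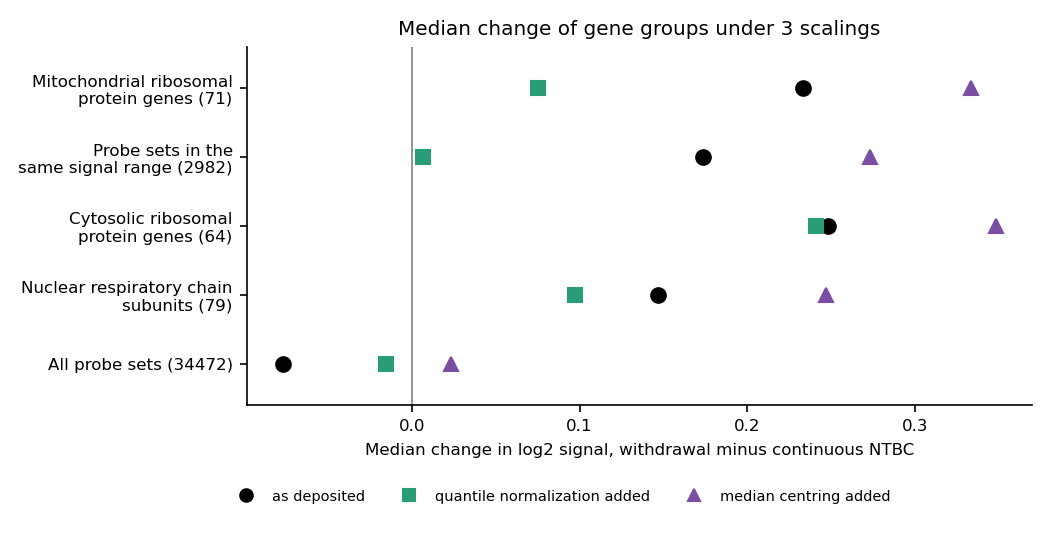
The horizontal axis is the median change in log2 signal, withdrawal minus continuous NTBC, for 5 groups of genes or probe sets; circles use the deposited values, squares quantile normalization added to them and triangles median centring. The family's median of 0.23 as deposited lies beside 0.17 for probe sets in its signal range, and quantile normalization brings these to 0.08 and 0.01.

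Promoter sequences were compared because many nuclear genes of mitochondrial proteins share short motifs near their start. RefSeq windows (GRCm38.p6) from 250 bases before to 50 after the start were matched for 62 of the 71 genes, 68 windows in all, 7 of them of genes that rose. The searched motifs, exact and on both strands, were CCGGAAG (ETS/GABPA core), GCATGCGC (NRF1 core), AAGATGGCG (YY1 core), CACGTG (E-box) and TGACNNNGC (antioxidant response element core). A full NRF1 palindrome counts as 2 overlapping matches. The ETS/GABPA core was found in 33.8% of the family's windows and 8.86% of all 32851 windows, the NRF1 core in 10.3% and 2.71%, and the YY1 core in 11.8% and 1.4%. The E-box was found in 10.3% and 7.15% and the antioxidant core in 17.6% and 12.4%. The family's windows had a median GC content of 58.5%, against 52.7% for all. Of the 7 windows of genes that rose, 2 held the ETS/GABPA core (Mrps22 and Mrps33), 1 the YY1 core (Mrpl35), 2 the antioxidant core (Mrpl16 and Mrpl50) and none the NRF1 core or the E-box. Matches are letters in a window and not sites of binding.

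Shown are the 4 genes with the highest changes, among named genes whose groups do not overlap, that hold a whole match in the 150 bases printed, 120 before the start and 30 from it. Matches are in capitals. Mrps22 (chr9:98601650-98601799, minus strand) has an ETS/GABPA core beginning at position -11 from the start, and Mrpl50 (chr4:49521054-49521203, minus strand) an antioxidant core at -53. Mrpl22 (chr11:58171544-58171693, plus strand) has an antioxidant core at -80, an ETS/GABPA core at -53 and an NRF1 core at -33. Mrpl52 (chr14:54426789-54426938, plus strand) has ETS/GABPA cores at -47 and 2. The sequences run 5′ to 3′ along the gene. Mrps22 and Mrpl50 rose, and Mrpl22 and Mrpl52 lay just outside the threshold.
Mrps22: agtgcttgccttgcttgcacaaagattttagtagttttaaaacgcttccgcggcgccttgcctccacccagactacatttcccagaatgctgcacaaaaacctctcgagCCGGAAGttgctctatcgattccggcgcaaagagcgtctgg
Mrpl50: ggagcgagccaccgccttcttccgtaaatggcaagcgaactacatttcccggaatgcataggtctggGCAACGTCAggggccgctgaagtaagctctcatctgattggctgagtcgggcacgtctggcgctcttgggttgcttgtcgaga
Mrpl22: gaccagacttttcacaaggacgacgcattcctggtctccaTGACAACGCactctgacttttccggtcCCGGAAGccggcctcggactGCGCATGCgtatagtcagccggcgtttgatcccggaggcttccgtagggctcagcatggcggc
Mrpl52: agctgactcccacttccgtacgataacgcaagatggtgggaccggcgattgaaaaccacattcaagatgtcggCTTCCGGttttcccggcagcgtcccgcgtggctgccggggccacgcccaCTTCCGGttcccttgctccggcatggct

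Across arrays the family varied within groups as well as between them. The median over the 71 genes was 7.58, 7.48 and 7.41 in the continuous group, in the order of its replicate numbers, and 7.75, 7.80 and 7.57 in the withdrawal group. The groups overlapped, since continuous replicate 1 lay above withdrawal replicate 3. The upper quartile of all probe sets was 6.73, 6.66 and 6.65 on the continuous arrays and 6.78, 6.81 and 6.69 on the withdrawal arrays. The 6 arrays stood in the same order by this quartile as by the family's median, and the part of this spread in the result was not tested. For the large subunit the medians were 7.59, 7.48 and 7.41 against 7.87, 7.90 and 7.63, with no overlap. For the small subunit they were 7.56, 7.57 and 7.45 against 7.69, 7.73 and 7.57, which met at 7.57.

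**Figure D2:**
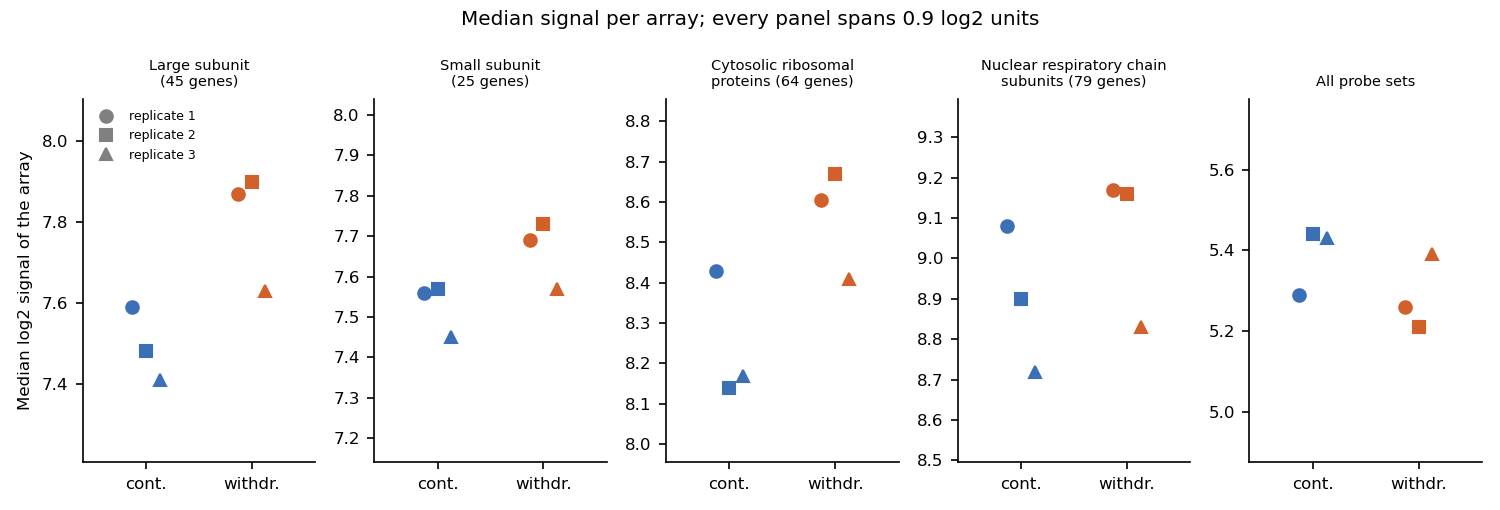
Each point is the median log2 signal of a gene group on 1 array, by group (cont., continuous NTBC; withdr., withdrawal) and replicate (symbol); panels have different positions on the vertical axis but equal spans. Withdrawal replicate 3 is the lowest withdrawal array in the 4 gene groups, and the large subunit is the mitochondrial subunit whose groups do not meet (7.63 against at most 7.59).

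By subunit, 8 of 45 large subunit genes and 2 of 25 small subunit genes rose, with median changes of 0.30 and 0.21. Quantile normalization brought these medians to 0.14 and 0.06, with 6 and 1 genes higher and 1 small subunit gene lower. The difference between the subunits was not tested. Large subunit proteins with a bacterial counterpart gave 5 rises among 28 genes, and those classed as mitochondria-specific gave 3 among 17. Mrps18a and Mrps18b were put in the mitochondria-specific classes, though they and Mrps18c descend from 1 bacterial protein. In the small subunit none of 15 genes with a bacterial counterpart rose by limma's adjusted p, and 1 of them had an unadjusted p under 0.05. Of 10 mitochondria-specific genes 2 rose. For comparison, 6.21% of all probe sets were called higher, and 16.6% of those in the family's signal range. These classes are small and were not tested against each other or against those shares. The 3 arrays of the withdrawal group lay wholly above those of the continuous group for 29 genes and wholly below for 2. Over all probe sets such separation occurred in 13.9% upward and 13.7% downward. It was not counted among probe sets in the family's signal range, where calls higher were more frequent than over all probe sets.

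**Figure D3:**
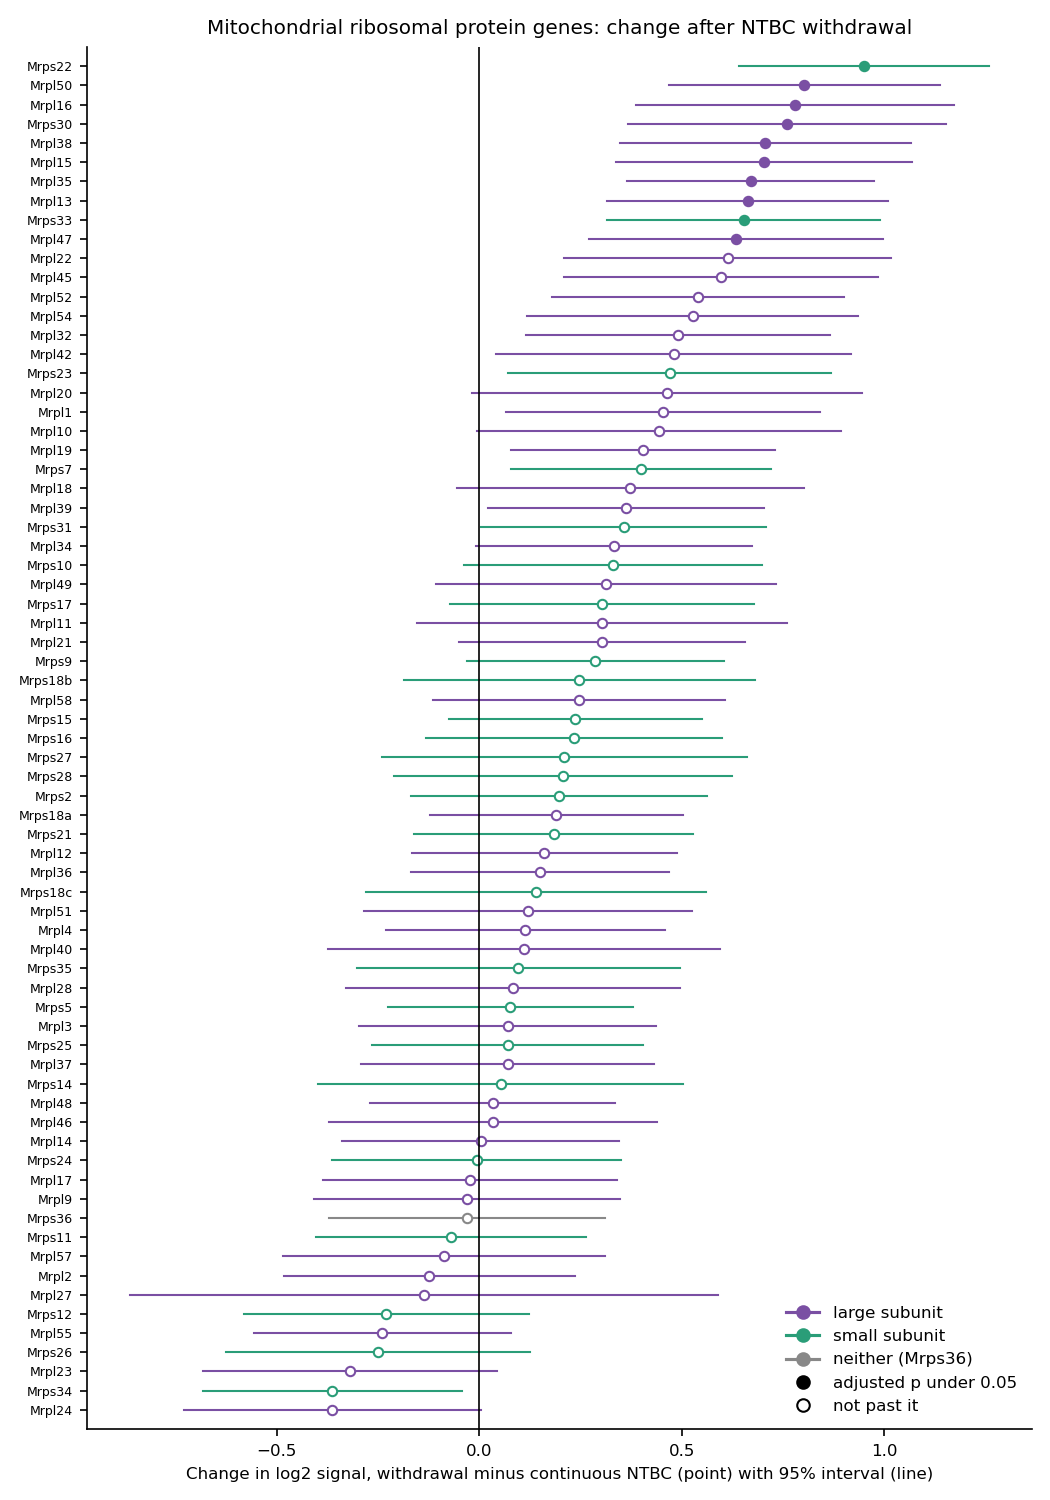
Each row is 1 of the 71 genes, with its change in log2 signal (withdrawal minus continuous NTBC, n = 3 arrays each) as a point and the 95% interval of limma's fit as a line; filled points passed the adjusted p of 0.05. Changes run from -0.36 (Mrpl24 and Mrps34) to 0.95 (Mrps22), and 57 of the 71 lie above 0.

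In the small subunit, Mrps22 encodes a protein with no bacterial counterpart, mutated in a human mitochondrial disease of infancy. Its signals were 7.22, 7.17 and 7.25 on the continuous arrays and 8.26, 8.14 and 8.09 on the withdrawal arrays. The groups were far apart beside their spread, at 7.21 ± 0.04 and 8.16 ± 0.09 (SD, n = 3 each). The change was 0.95 (SE 0.14), a 1.93-fold rise with limma's adjusted p = 0.00218. It was the family's only call that held without any 1 array (highest adjusted p = 0.0201), and with quantile normalization it was 0.78 (adjusted p = 0.00626).

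Mrps33, a small protein of the same subunit without a bacterial counterpart, had signals of 7.78, 7.43 and 7.65 with NTBC and 8.21, 8.36 and 8.25 after withdrawal. All withdrawal signals were above all continuous ones, with a change of 0.65 (SE 0.15) and limma's adjusted p = 0.0233. When single arrays were left out the call survived for continuous replicate 1 and for no other (highest adjusted p = 0.0996), and it was lost with quantile normalization (adjusted p = 0.0542).

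Mrps34, needed for a stable small subunit, had signals of 8.12, 8.12 and 7.97 with NTBC and 7.72, 7.81 and 7.59 after withdrawal. Its withdrawal signals were all lower, and the change of -0.36 (SE 0.14) gave limma's adjusted p = 0.158. With quantile normalization it was called lower, by -0.54 (adjusted p = 0.0293). Mrps7, counterpart of a bacterial protein of the small subunit head, had a change of 0.40 (SE 0.14, adjusted p = 0.122), and its groups did not overlap. Mrps23 and Mrps31, both mitochondria-specific, had changes of 0.47 and 0.36 with groups apart, and neither passed (adjusted p = 0.142 and 0.207).

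In the large subunit, Mrpl50 encodes a mitochondria-specific protein. Its signals were 8.47, 8.29 and 8.39 with NTBC and 9.27, 9.29 and 9.0 after withdrawal. The groups did not overlap, and the change of 0.80 (SE 0.15) was a 1.75-fold rise with limma's adjusted p = 0.00814. Leaving out withdrawal replicate 1 ended the call (adjusted p = 0.0552).

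Mrps30, another mitochondria-specific large subunit protein, had signals of 7.47, 7.00 and 6.93 with NTBC and 7.93, 7.99 and 7.76 after withdrawal. Continuous replicate 1 stood above the other 2 continuous arrays, and the groups did not overlap. The change was 0.76 (SE 0.18, limma's adjusted p = 0.0235). Mrpl38, whose protein resembles phosphatidylethanolamine-binding proteins, had signals of 8.12, 8.19 and 7.80 with NTBC and 8.90, 8.66 and 8.67 after withdrawal. These were again apart, with a change of 0.71 (SE 0.16, adjusted p = 0.0218), but the call was lost with quantile normalization (adjusted p = 0.0723).

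Of the genes with a bacterial counterpart, Mrpl16 encodes a protein that in bacteria lies near the site of peptide bond formation. Its signals were 7.77, 7.38 and 7.42 with NTBC and 8.33, 8.52 and 8.06 after withdrawal. All withdrawal arrays were higher, by 0.78 (SE 0.18, limma's adjusted p = 0.0207) on average. Mrpl15, also the counterpart of a bacterial large subunit protein, had signals of 8.02, 8.05 and 7.96 with NTBC and 8.87, 8.85 and 8.42 after withdrawal. The rise was smallest on withdrawal replicate 3, and the change was 0.70 (SE 0.16, adjusted p = 0.0237). With quantile normalization its adjusted p was 0.0524.

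Mrpl35, a small protein of the large subunit, had signals of 7.58, 7.50 and 7.59 with NTBC and 8.21, 8.28 and 8.19 after withdrawal. Both groups were narrow (SD 0.05 each, n = 3), and the change of 0.67 (SE 0.14) gave limma's adjusted p = 0.0126. Mrpl13 had signals of 7.52, 7.35 and 7.11 with NTBC and 8.03, 8.03 and 7.91 after withdrawal. Its withdrawal arrays were all higher, by 0.66 (SE 0.16, adjusted p = 0.0246) on average.

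Mrpl47 is the counterpart of a bacterial protein at the exit of the peptide tunnel, and it was measured by 2 probe sets. The brighter one gave 6.41, 6.50 and 6.20 with NTBC and 7.10, 7.14 and 6.77 after withdrawal. The dimmer one gave 5.50, 4.51 and 4.73 against 6.06, 6.31 and 5.55. Both rose, by 0.63 (SE 0.16, limma's adjusted p = 0.0367) and by 1.06 (SE 0.27, adjusted p = 0.0352), and in both all withdrawal signals were higher.

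Several of these calls did not hold when 1 array was left out, which also left fewer samples for the fit. Those of Mrpl13, Mrpl15, Mrpl16, Mrpl47 and Mrps30 each ended when continuous replicate 2 or 3, or withdrawal replicate 1 or 2, was left out, with highest adjusted p of 0.116, 0.129, 0.0956, 0.167 and 0.103 in that order. The Mrpl38 call ended without continuous replicate 3 or either of withdrawal replicates 1 and 2 (highest adjusted p = 0.123). That of Mrpl35 ended without either of withdrawal replicates 1 and 2 (highest adjusted p = 0.0691). In numbers, 15 genes were higher without continuous replicate 1, 4 without continuous replicate 2, and 3 without continuous replicate 3. The counts were 1, 2 and 9 when withdrawal replicates 1, 2 and 3 were left out in turn. In each of these fits no family member was lower.

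**Figure D4:**
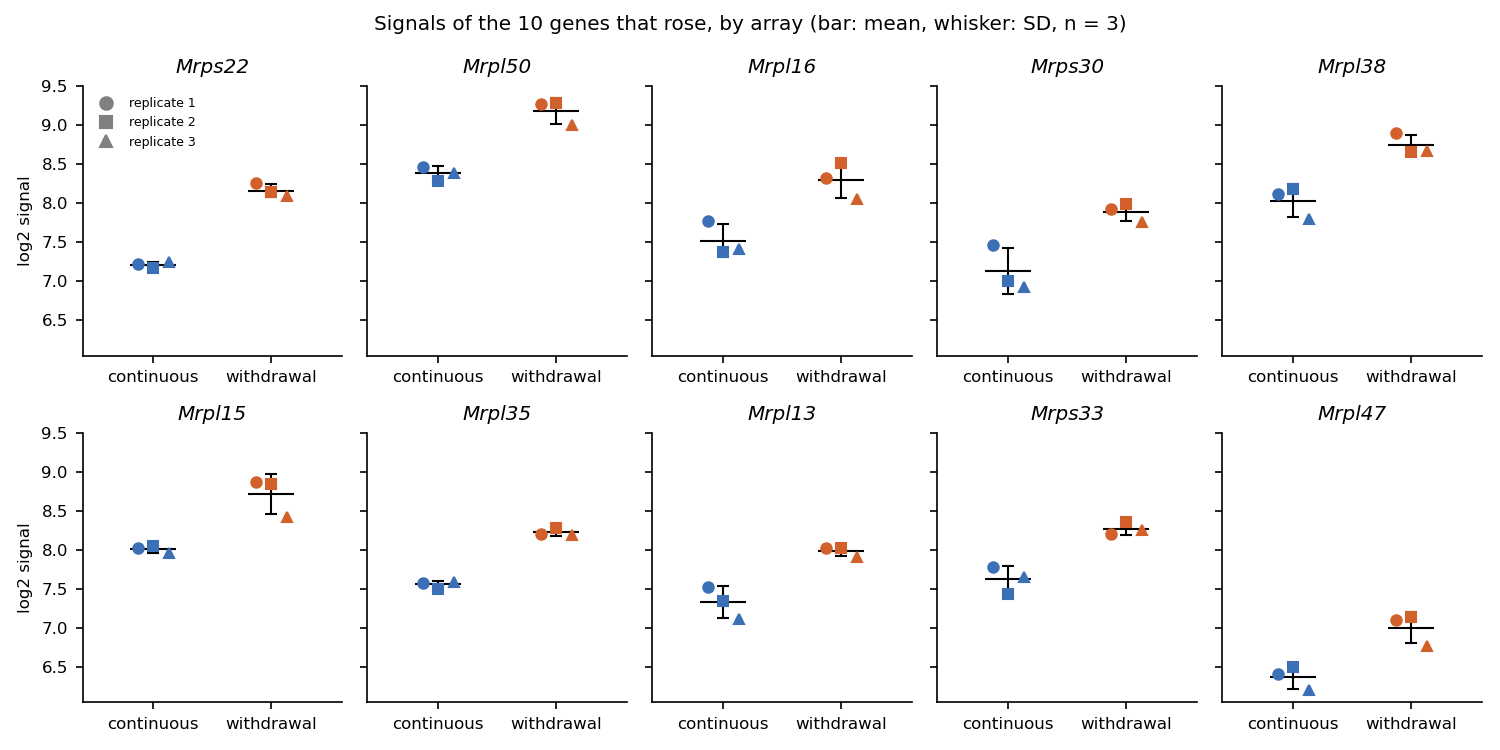
Each panel is 1 of the 10 genes that rose, with the log2 signal of every array (symbols mark the replicate), the group mean (bar) and SD (whisker, n = 3). The groups do not overlap in any panel; Mrps22 has the widest gap, from 7.25 to 8.09.

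Mrpl45, Mrpl22 and Mrpl52 lay next to the threshold on its far side. Mrpl45, which anchors the ribosome to the inner membrane, had signals of 7.02, 6.55 and 6.66 with NTBC and 7.51, 7.15 and 7.36 after withdrawal (change 0.60, SE 0.17, limma's adjusted p = 0.0609). Mrpl22, another protein of the tunnel exit, had 6.83, 6.60 and 6.41 against 7.52, 7.15 and 7.01 (change 0.61, SE 0.18, adjusted p = 0.0646). Mrpl52 had 8.67, 8.53 and 8.25 against 9.10, 9.10 and 8.87 (change 0.54, SE 0.16, adjusted p = 0.0685). In all 3 the groups did not overlap.

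Mrpl32, which is cleaved by a mitochondrial protease before it enters the ribosome, had a change of 0.49 (SE 0.17, limma's adjusted p = 0.105). Mrpl54, Mrpl1 and Mrpl19 had changes of 0.53, 0.45 and 0.40, each with groups apart and adjusted p from 0.110 to 0.147. Mrpl39, with groups apart, had a change of 0.36 (adjusted p = 0.184), and Mrpl42, whose groups overlapped, of 0.48 (adjusted p = 0.174). None of these 6 genes passed. Mrpl24, whose bacterial counterpart starts the assembly of the large subunit, had signals of 9.54, 9.27 and 9.41 with NTBC and 9.02, 9.28 and 8.83 after withdrawal. These overlapped, with a change of -0.36 (SE 0.17, adjusted p = 0.217).

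Mrpl12, Mrpl58 and Mrps36 did not pass. Mrpl12, which sits in the stalk that recruits translation factors and also binds the mitochondrial RNA polymerase, had signals of 7.90, 7.90 and 7.67 with NTBC and 7.98, 8.08 and 7.89 after withdrawal. Its groups overlapped, and the change was 0.16 (95% interval -0.17 to 0.49, limma's adjusted p = 0.552), or -0.03 with quantile normalization. Mrpl58, a peptidyl-tRNA hydrolase that frees stalled chains, had a change of 0.25 (95% interval -0.11 to 0.61). Mrps36 gave signals between 3.88 and 4.18 on all arrays, near the lower quartile, and a change of -0.03.

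The 3 Mrps18 paralogs descend from 1 bacterial protein, and Mrps18a sits in the large subunit while Mrps18b and Mrps18c sit in the small one. Their changes were 0.19 (SE 0.14), 0.25 (SE 0.20) and 0.14 (SE 0.19), and none passed (limma's adjusted p = 0.455, 0.486 and 0.699). A dimmer Mrps18c probe set went the other way, with 4.88, 5.25 and 4.95 on the continuous arrays and 4.53, 4.80 and 4.37 on the withdrawal arrays (change -0.46, adjusted p = 0.134). Probe sets also differed in sign for Mrpl10 (0.44 and -0.22), Mrpl12 (0.16 and -0.12), Mrps16 (0.23 and -0.22) and Mrps5 (0.08 and -0.62). In each of these genes the dimmer probe set had the negative change, and no value passed. Why probe sets of 1 gene disagree was not tested.

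Of 5 subunit genes with other names, 3 had a probe set of their own. Dap3, a GTP-binding protein of the small subunit, had a change of 0.36 (SE 0.17, limma's adjusted p = 0.234), and Gadd45gip1, of the large subunit, a change of 0.21 (SE 0.16, adjusted p = 0.473). Ptcd3, an RNA-binding small subunit protein, gave opposite results on 2 probe sets. The brighter one fell, from 11.31, 11.88 and 11.02 to 10.73, 10.61 and 10.28 (change -0.86, SE 0.22, adjusted p = 0.0380). The dimmer one had 7.88, 7.07 and 7.53 with NTBC and 8.35, 8.30 and 8.01 after withdrawal (change 0.73, SE 0.21, adjusted p = 0.0588). No direction can be given for Ptcd3. The call of the brighter one was also lost after median centring (adjusted p = 0.0661), and with continuous replicate 2 or any of the withdrawal arrays left out (highest 0.112).

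Genes that serve the ribosome are given beside it. Over all probe sets 6.21% were called higher and 3.2% lower, and in the family's signal range 16.6% were higher. The counts of the lists below were not tested against these shares. Of 14 measured mitochondrial translation factors, 2 rose (14.3%) and none fell, with a median change of 0.07. Mtrf1l, a release factor that ends translation, had signals of 6.44, 6.02 and 6.04 with NTBC and 6.96, 7.10 and 6.81 after withdrawal (change 0.79, SE 0.17, limma's adjusted p = 0.0154). Mrrf, which splits the spent ribosome, had 7.99, 7.76 and 7.71 against 8.49, 8.49 and 8.26 (change 0.59, SE 0.15, adjusted p = 0.0367). In both genes all withdrawal signals were higher. The elongation factor Tufm had a change of 0.26 (SE 0.15, adjusted p = 0.316). Both calls ended when continuous replicate 2 or 3, or withdrawal replicate 1 or 2, was left out (highest adjusted p = 0.0750 for Mtrf1l and 0.170 for Mrrf). With quantile normalization the Mrrf call was also lost (adjusted p = 0.0751), and the list had 1 higher gene and 1 lower, with a median of -0.06.

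Of 28 measured assembly and rRNA modification factors, 3 rose (10.7%) and none fell, with a median change of 0.15, or 0.01 with quantile normalization. Ddx28, a helicase of large subunit assembly, had signals of 5.93, 5.26 and 5.21 with NTBC and 6.74, 6.78 and 6.28 after withdrawal. The groups were apart, with a 2.19-fold rise (change 1.13, SE 0.22, limma's adjusted p = 0.0103). Rpusd4, which makes pseudouridine in mitochondrial RNA, rose by 0.73 (SE 0.17, adjusted p = 0.0222). Afg3l2, a subunit of the protease that cleaves the Mrpl32 protein, rose by 0.62 (SE 0.16, adjusted p = 0.0348). The Ddx28 call ended without either of withdrawal replicates 1 and 2 (highest adjusted p = 0.0526), and that of Rpusd4 without those or continuous replicate 2 (highest 0.109). Afg3l2 was lost without any 1 array but continuous replicate 1 (highest 0.174) and with quantile normalization (0.0628).

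The ribosome's RNAs are copied from mitochondrial DNA, and 2 of 14 measured genes of transcription and copying of that DNA rose (14.3%), with a median change of 0.29. Tfb2m, which opens mitochondrial promoters, had signals of 7.74, 7.31 and 7.50 with NTBC and 8.28, 8.28 and 8.37 after withdrawal. The withdrawal arrays were narrow and all higher (change 0.79, SE 0.16, limma's adjusted p = 0.0107). Polrmt, the mitochondrial RNA polymerase, had 7.07, 6.97 and 7.07 against 7.70, 7.57 and 7.47 (change 0.54, SE 0.14, adjusted p = 0.0397). Tfam, which packs the DNA, had a change of 0.30 (SE 0.20) with overlapping groups (adjusted p = 0.414). Leaving out withdrawal replicate 1 ended the Tfb2m call (0.0517). Polrmt was lost without any 1 array but continuous replicate 1 (highest 0.202) and with quantile normalization (0.0980).

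Of 9 regulators of mitochondrial biogenesis 1 rose and 1 fell, with a median change of -0.09 that median centring turned to 0.01. Nrf1 and Gabpa, the factors best known for binding promoters of nuclear genes of mitochondrial proteins, had changes of -0.06 (95% interval -0.44 to 0.32) and -0.15 (95% interval -0.52 to 0.22). The coactivator Ppargc1a had a change of -0.17 (95% interval -0.66 to 0.32). Its relative Ppargc1b fell by 0.71 (SE 0.18, limma's adjusted p = 0.0356), from 6.56, 6.69 and 6.29 to 5.84, 6.05 and 5.51. Myc, a growth factor-induced regulator of ribosome genes, had 8.06, 6.38 and 6.32 with NTBC and 8.76, 8.63 and 8.85 after withdrawal. Continuous replicate 1 stood between the other continuous arrays and the withdrawal arrays, and Myc rose by 1.83 (SE 0.38, adjusted p = 0.0144). Its call ended without continuous replicate 2 and without withdrawal replicate 1 (highest 0.0669). That of Ppargc1b ended after median centring (adjusted p = 0.101), and also without continuous replicate 1 or 2, or withdrawal replicate 1 or 3 (highest 0.122).

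**Figure D5:**
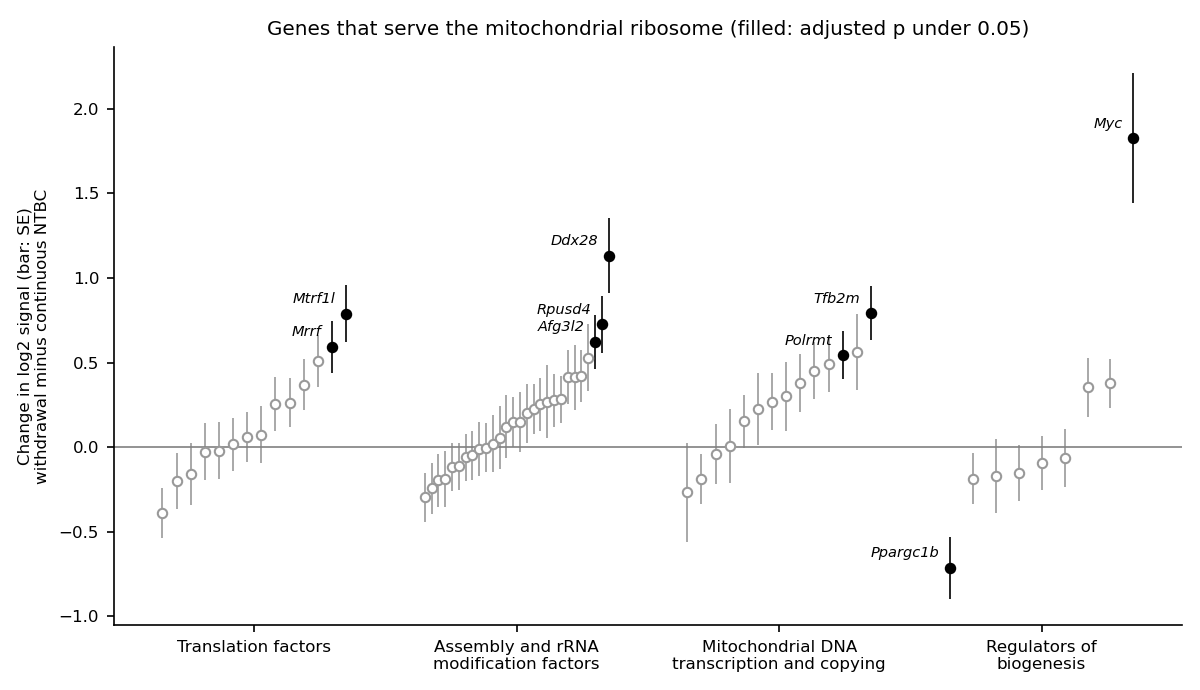
Each point is 1 gene of 4 lists, with its change in log2 signal (withdrawal minus continuous NTBC) on the vertical axis and its SE as a bar; genes are sorted within a list and filled where the adjusted p was under 0.05. The 9 filled genes are Mtrf1l, Mrrf, Ddx28, Rpusd4, Afg3l2, Tfb2m, Polrmt, Myc and, below 0, Ppargc1b.

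Other ribosomal and respiratory genes are given for scale. Beside them, 6.21% of all probe sets were called higher and 3.2% lower, and 16.6% were higher in the family's signal range. The share in these genes' own signal ranges was not counted. Of 64 cytosolic ribosomal protein genes 11 rose (17.2%) and none fell, with a median change of 0.25, which was 0.24 with quantile normalization. That count ranged from 1 without withdrawal replicate 1 to 20 without continuous replicate 1. Array weights gave 25, a trended and robust fit 17, leaving out dim probe sets 17 and raising signals to the lower quartile 14. Of 79 nuclear subunits of the respiratory chain and ATP synthase, to which the products of mitochondrial translation are joined, 3 rose and 1 fell, with a median of 0.15 (0.10 with quantile normalization and 0.25 after centring). With 1 array left out the number higher ranged from 0 (leaving out continuous replicate 2, or either of withdrawal replicates 1 and 2) to 2 (leaving out continuous replicate 1). It was 9 without dim probe sets, 10 with signals raised to the lower quartile, 11 with a trended and robust fit and 13 with array weights. No test of the difference between these groups and the family was made.

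Markers of other liver cells were measured beside these results. Over all probe sets 6.21% were called higher and 3.2% lower, and the share in the markers' own signal ranges was not counted. Of 8 sinusoidal endothelial markers 2 rose (Lyve1 and Clec4g). All 8 changes were above 0, with a median of 0.395. For 6 of the 8 the withdrawal arrays lay wholly above the continuous ones, against 13.9% of all probe sets. The summed linear signal of the 8 was 1553 to 1846 on the continuous arrays and 2360 to 2407 on the withdrawal arrays. The summed signal of 7 hepatocyte markers was 64890 to 68400 with NTBC and 58340 to 63940 after withdrawal, with none called. The 7 measured adipocyte markers summed to 271 to 307 and 980 to 1493, but the list did not move together. Cidec and Fabp4 were called higher, by 3.90 and 2.32, whereas the other 5 (Adipoq, Lep, Plin1, Retn and Slc2a4) had changes from -0.36 to -0.11 that did not pass, and the list's median was -0.12. Summed signals of Kupffer, stellate, cholangiocyte, lymphocyte and neutrophil markers overlapped between the groups, with 1 neutrophil marker (Retnlg) called lower. Apart from continuous replicate 2, so did those of the acinar markers. Below the lower quartile on all 6 arrays were 1 of 6 cholangiocyte markers (Epcam), 2 of 8 neutrophil markers (S100a8 and Retnlg) and 1 of 7 acinar markers (Amy2b), and none of the other lists. The part of such cells in the family's changes was not tested.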

How the data were processed

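Liver RNA was hybridised as biotin-labelled material to 6 Affymetrix whole-transcript arrays, per the labels' protocols. The deposited table gives each probe set a normalized intensity on every array, in linear units. The submitters' processing notes name Transcriptome Analysis Console. Its version, background correction, normalization and array build are not given in the sources used here. Intensities were turned to log2 and not normalized again. Of 34472 probe sets, 23521 have 1 symbol in the platform's annotation, 1814 have several and 9137 have none, and no gene was named from several. All 71 family symbols matched RefSeq (GRCm38.p6) by identifier. The fit covered the whole table (limma 3.58.1, R 4.3.3, lmFit and eBayes, 4 residual degrees of freedom), two-sided, with Benjamini-Hochberg adjustment at 0.05 and no filter. Per gene, the probe set with the highest mean was used. The fit was tested on simulated data.

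The members and lists were chosen with earlier results of these data known. Named were the 10 called members, all of which rose, since none was called lower. The size of an uncalled fall was not a ground for naming. Also named were the uncalled members with the smallest p-values up to 24 in all, and the 3 on each side of the threshold. Added to these were members whose probe sets differ in sign or call, and Mrpl12, Mrpl58, Mrps30, Mrps36 and the Mrps18 genes. From other lists up to 4 called genes in each direction, Fah, Tfam, Polrmt, Nrf1, Gabpa, Ppargc1a, Tufm and the measured subunits with other names were named. Cytosolic ribosomal and respiratory chain genes are given as counts. Alb, Hspa9, Lonp1 and the dim or uncalled markers were added after their values were seen. The comparison with probe sets of like signal was added after seeing the data. Mitochondrially encoded transcripts were not analysed here. With 3 arrays a group, precision is limited by their number. Alternatives tried were the threshold, scaling, array weights, filters, the probe set rule, a replicate block and leaving out each array.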

Additional observations from a re-analysis of the deposited data

How the results depend on the processing

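The count of 10 family members called higher became 2 at an adjusted p of 0.01 and 19 with limma's array weights, and ranged from 1 to 15 with 1 array left out. It lay between 7 and 13 under the other alternatives run, all 10 changes were at least 1.5-fold, and the count of members called lower was 0 in every alternative but quantile normalization, which gave 1. With quantile normalization the median changes were 0.0753 for the family, 0.145 for the large subunit and 0.0597 for the small subunit, against 0.23, 0.30 and 0.21. Median centring gave 0.31 for the small subunit. With 1 array left out the small subunit's median ranged from 0.11 to 0.27. Over all probe sets, 2139 were called higher and 1102 lower. The counts were 986 and 471 at an adjusted p of 0.01, and 3339 and 2249 with array weights. Median centring left 708 lower. With 1 array left out they ranged from 935 to 2629 higher and from 519 to 1581 lower. Among 560 values of the 33 named members under 17 alternatives, 488 kept their side of the threshold, 42 lost the call and 30 gained it. No called change turned direction, but over all 71 members the sign differed for 12 with quantile normalization and for 6 after centring. The cause of these shifts was not tested, except that a left-out array also leaves fewer samples and a stricter threshold fewer calls.

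Replicate numbers were not used to pair the arrays in the main fit. Deviations from the group means correlated at 0.16, -0.13 and 0.22 for numbers 1 to 3. The highest correlations with an array of another number were 0.25, 0.18 and -0.10 in that order. With 3 arrays a group these values cannot show whether the arrays were paired. With the replicate block 12 members were called higher, the 10 above with Mrpl22 and Mrpl45. Depth has no counterpart on these arrays, and no background level was used, so how far low signals such as those of Mrps36 lie above background was not tested.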

Other observations

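The 13 probe sets that carry a family symbol together with another gene's were left out of the counts above, since their signal cannot be assigned to 1 gene. Their changes ran from -0.26 to 0.62, and none was called in either direction by limma's adjusted p.

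Genes of mitochondrial proteases and chaperones, which fold and clear imported proteins, were also measured. Of 10 such genes 1 rose and none fell, with a median change of 0.32, or 0.22 with quantile normalization. Over all probe sets 6.21% were called higher, and 16.6% in the family's signal range. Hspe1, the co-chaperonin that caps the Hspd1 folding chamber, had signals of 8.98, 8.69 and 8.52 with NTBC and 9.50, 9.38 and 9.27 after withdrawal. All withdrawal signals were higher, with a change of 0.65 (SE 0.16, limma's adjusted p = 0.0330). The call was lost without any 1 array but continuous replicate 1 (highest adjusted p = 0.159). Hspa9, the import chaperone, had a change of 0.50 (SE 0.16, adjusted p = 0.0759), and Lonp1, a matrix protease, of 0.42 (SE 0.16, adjusted p = 0.136).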
